A study of Mus musculus with 6 samples.

Results

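Expression of 10 genes of the BCL2 family was examined in donor HSPCs (hematopoietic stem and progenitor cells) that had been sorted from recipient mice at 6 h after BMT (bone marrow transplantation). These members were taken by name from a table of 24965 genes, and all of them were found in it: the prosurvival genes Bcl2, Bcl2l1, Mcl1, Bcl2a1b and Bcl2a1d, the effector genes Bax and Bak1, and the BH3-only genes Bcl2l11, Bid and Bad. The 2 groups were WT and Hemgn-/-, with 3 libraries each, and the comparison asked how the loss of Hemgn, a gene of hematopoietic cells, is reflected in RNA of donor cells early after transplantation. The donors were CD45.2+ mice on the C57BL/6 background, either Hemgn-/- mice made with zinc finger nucleases or WT littermates, and both sexes were used at 8 to 10 weeks of age. In both groups the recipients were CD45.1+ mice that had received 9 Gy in 2 fractions of 4.5 Gy and then 20000000 donor bone marrow cells. Because the disruption is in the germ line, every donor cell carried it, whereas the recipients were not described as Hemgn-deficient. By the sample labels the gate was lineage-negative and Sca-1+, while the series design and the study's methods add c-Kit to it. Each library is called a biological replicate by the study's methods, and how many mice gave the cells of one library is not given in the sources used here.

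Proteins of the BCL2 family decide at the outer mitochondrial membrane whether a cell enters apoptosis. The effectors BAX and BAK1 form pores that release cytochrome c, and the prosurvival proteins hold the effectors and their activators in check. The BH3-only proteins carry stress signals by binding to the prosurvival proteins and, for some of them, to the effectors. In the hematopoietic system MCL1 and BCL2 keep stem cells and lymphocytes alive, BCL-XL, the long product of Bcl2l1, protects erythroid cells and platelets, and BIM, the product of Bcl2l11, removes lymphocytes that lack survival signals. Much of the family's control acts on the proteins, which RNA does not measure.

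The Bcl2a1 genes, which encode the prosurvival protein A1, are near-identical copies on mouse chromosome 9, so their sequences bear on how far the values of 2 members, Bcl2a1b and Bcl2a1d, can be told apart. The coding sequence of 516 bases differed at 6 positions between Bcl2a1b and Bcl2a1d (98.8% identity), at 7 between Bcl2a1a and Bcl2a1d, and at 11 between Bcl2a1a and Bcl2a1b. The first 120 coding bases hold 7 of the 12 positions at which any of the 3 copies differs, and these positions are in capitals in the sequences that follow. They were read from the GENCODE M21 transcripts of GRCm38 and are shown 5′ to 3′ on the strand of the gene. They lie at chr9:88957051-88957170 (plus strand) for Bcl2a1a, chr9:89199360-89199479 (plus strand) for Bcl2a1b and chr9:88731600-88731719 (minus strand) for Bcl2a1d.
Bcl2a1a: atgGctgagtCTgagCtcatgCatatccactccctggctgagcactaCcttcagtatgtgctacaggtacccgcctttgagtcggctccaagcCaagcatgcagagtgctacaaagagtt
Bcl2a1b: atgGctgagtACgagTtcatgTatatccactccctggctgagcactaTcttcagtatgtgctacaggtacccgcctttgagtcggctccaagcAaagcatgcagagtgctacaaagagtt
Bcl2a1d: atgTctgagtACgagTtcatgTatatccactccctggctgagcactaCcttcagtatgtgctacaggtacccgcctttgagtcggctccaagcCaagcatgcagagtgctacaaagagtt
Counted from 1 at the first coding base, Bcl2a1b and Bcl2a1d differed by G4T, T48C and A94C in this stretch, with the base of Bcl2a1b given first. Of all windows of 150 bases in the transcript, 14.2% in Bcl2a1b and 30.3% in Bcl2a1d were shared letter for letter with another copy, as were 28.2% in Bcl2a1a. A fragment from a shared window can belong to more than 1 copy, so the split of the signal among the copies is uncertain, and their sum is given beside the single genes. How such fragments were counted is not given in the sources used here. Any that were discarded are missing from the sum as well.

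RNA-seq values were deposited as FPKM (fragments per kilobase of transcript per 1000000 fragments), and 1 fragment on a transcript of 1 kb was worth 0.0346 to 0.0423 FPKM. The depth recovered from the steps of low values ranged from 23667964 to 28897229 fragments per library. Hemgn itself (chromosome 4) had 5.64, 2.96 and 4.68 FPKM in WT libraries against 0.755, 0.913 and 1.6 in Hemgn-/- libraries, so the labels of all 6 libraries fitted its level (log2 fold change -1.37 ± 0.23 (SE), adjusted p = 0.0114 by limma). Without WT replicate 3 this adjusted p was 0.0503, in a range of 0.00739 to 0.0613 under the alternatives. The study describes the disruption as a small deletion that creates a premature stop codon, so Hemgn RNA is no direct readout of the genotype. Erythroid markers were lower in Hemgn-/- libraries too, and the part of cell composition in the Hemgn difference was not tested. In the comparison of Hemgn-/- with WT by limma on log2(FPKM + 1), 13739 genes passed the filter of more than 1 FPKM in at least 1 library, and 6.46% of them had an adjusted p under 0.05, 600 higher and 287 lower in Hemgn-/-. This split depends on the scaling between libraries. It was 341 higher and 386 lower with median-ratio scaling, 368 and 346 with quantile normalization, and 1062 and 238 with the same FPKM total in each library (TPM). Over all genes tested the median log2 fold change was 0.087 as deposited, 0.0068 with median-ratio scaling and 0.16 with TPM, so small differences of members are to be read against this range.

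Transcripts of mature cells were abundant in these sorted cells, which bears on every level given for the family, since its members are also expressed in mature blood cells. The genes of the sort were present, with Ly6a, which encodes Sca-1, at 8.27 to 10.2 FPKM in WT and 11.4 to 17.3 in Hemgn-/- libraries. Kit, which encodes c-Kit, went the other way, at 6.14 to 7.24 and 5.50 to 5.90 FPKM, and neither gene was called. The 12 HSPC markers summed to 44.8 to 49.0 FPKM in WT and 54.6 to 64.0 in Hemgn-/- libraries, with 2 of 11 tested higher and Mecom under 1 FPKM throughout. The 14 neutrophil markers summed to 77354 to 83160 FPKM in WT and 51428 to 57081 in Hemgn-/- libraries (1 higher and 5 lower of 14), with Ngp the most abundant at 43176 to 46692 and 26488 to 27961 FPKM. Erythroid markers summed to 462 to 550 FPKM in WT and 32.4 to 51.7 in Hemgn-/- libraries (5 of 9 lower, with Hba-a1 the most abundant marker), and eosinophil and basophil markers to 732 to 839 and 578 to 595 FPKM (3 of 10 lower, with Prss34, which was not called, the most abundant). B cell markers, of which Ighm was the most abundant, summed to 2392 to 2512 FPKM in WT and 2902 to 3131 in Hemgn-/- libraries (6 of 12 higher). T and NK cell markers summed to 231 to 253 and 271 to 300 FPKM (3 of 11 higher, with Trac, which was not called, the most abundant), and those of plasmacytoid dendritic cells to 348 to 352 and 452 to 526 (4 of 10 higher, with Spib the most abundant). Macrophage and monocyte markers summed to 650 to 675 FPKM in WT and 583 to 681 in Hemgn-/- libraries (3 higher and 2 lower of 11, with Ly6c2, which was not called, the most abundant and Mertk under 1 FPKM). Endothelial markers summed to 39.3 to 43.5 and 27.0 to 38.4 FPKM (none of 6 called, with Plvap the most abundant and Cdh5, Flt4 and Vwf under 1 FPKM), and Slc4a1 was the erythroid marker under 1 FPKM. The part of these other cells in the family's values was not tested.

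The 10 members fell into 2 tiers of level and 1 gene near 0. In WT libraries the upper tier held Mcl1 (52.0 ± 2.40 FPKM, SD, n = 3), Bcl2l1 (50.3 ± 1.01), Bax (47.2 ± 3.08) and Bid (42.2 ± 3.11), which were all above the 91st percentile of the genes tested by their mean over the 6 libraries, from 91.8 for Bax to 93.8 for Mcl1. The lower tier held Bcl2a1d (8.34 ± 1.21 FPKM), Bcl2l11 (7.31 ± 0.664), Bcl2 (7.23 ± 0.699), Bad (6.05 ± 0.166) and Bak1 (3.59 ± 1.61), between percentiles 52.0 and 66.4. Neighbours whose WT ranges overlapped were Mcl1 with Bcl2l1, Bcl2l1 with Bax, Bcl2a1d with Bcl2l11, and Bcl2l11 with Bcl2. In Hemgn-/- libraries the order of means was Mcl1 (59.9 ± 0.963 FPKM), Bid (51.1 ± 4.52), Bcl2l1 (48.0 ± 0.371) and Bax (38.3 ± 2.87), followed by Bcl2 (9.39 ± 0.493), Bcl2l11 (8.13 ± 1.39), Bcl2a1d (7.78 ± 0.418), Bad (5.72 ± 0.331) and Bak1 (5.57 ± 0.411). Overlapping neighbours there were Bid with Bcl2l1, Bcl2 with Bcl2l11, Bcl2l11 with Bcl2a1d, and Bad with Bak1. Bcl2a1b stood last in both groups. FPKM are per length, but a gene-level length does not separate isoforms, and some members overlap other genes. Levels of different genes therefore compare only roughly. The plot of FPKM by library shows both tiers.

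**Figure D1:**
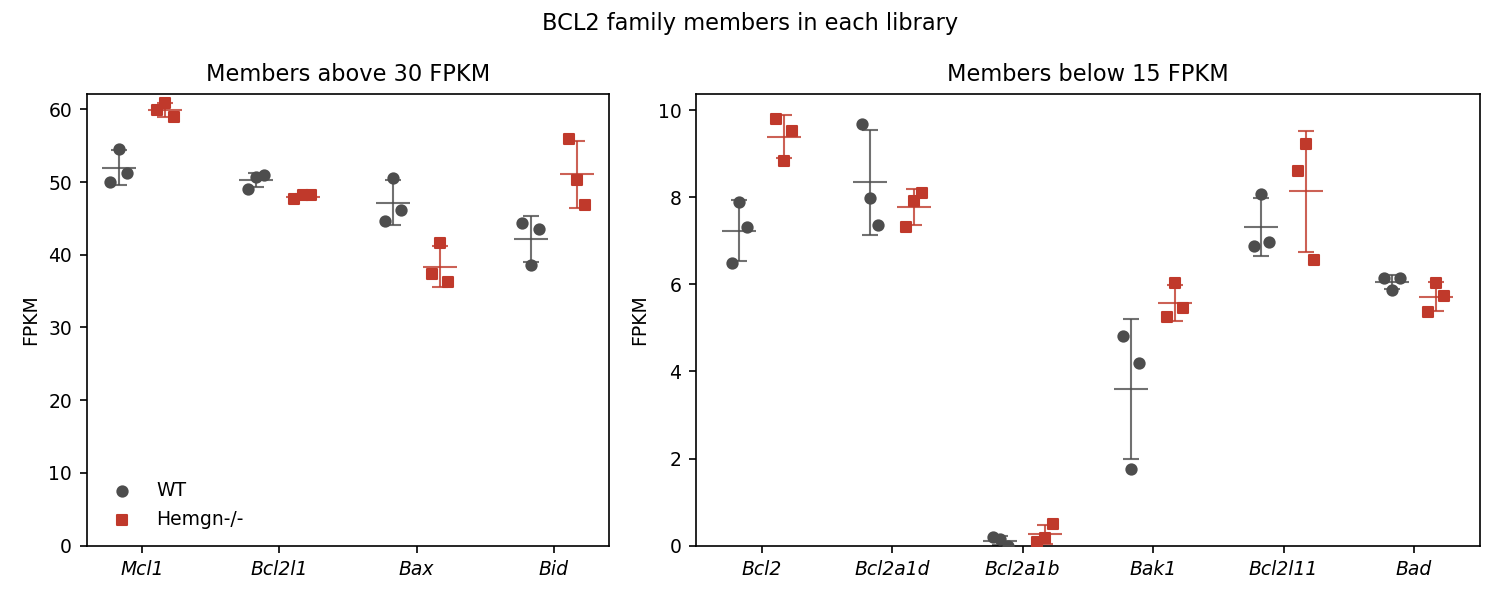
FPKM of the 10 BCL2 family members in each of the 6 libraries, with WT as grey circles, Hemgn-/- as red squares, and the mean and SD of each group (n = 3) as horizontal and vertical lines. Members of the upper tier are on the left and the others on the right. The groups do not overlap for Bcl2, Mcl1, Bid and Bak1, which are higher in Hemgn-/- libraries, or for Bax and Bcl2l1, which are lower. With median-ratio scaling Mcl1 and Bid overlap, and with TPM Bcl2l1 does.

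None of the 9 members that could be tested differed between the genotypes at an adjusted p under 0.05, against 6.46% of all genes tested. At an unadjusted p under 0.05 there were 5 of 9 members (Bcl2, Mcl1, Bid and Bak1 higher and Bax lower in Hemgn-/-), against 21.4% of all genes, and this count was 2 with median-ratio scaling, where the members were Bax and Bcl2l1, both lower. The count was also 2 with quantile normalization and with eBayes without a trend, where the members were Bcl2, higher, and Bax, lower. It was 3 without WT replicate 1, WT replicate 2 or Hemgn-/- replicate 1. The 2 groups of 3 libraries did not overlap for 6 of 9 members, against 27.4% of all genes. With median-ratio scaling this held for 5 members, among which Bad replaced Mcl1 and Bid, and with TPM for 5, without Bcl2l1. For either count the share of all genes was computed as deposited alone, so the counts under other settings have no such share beside them. The study's threshold, an unadjusted p under 0.05 and a 1.5-fold difference, was applied to the limma fit, since the study names no test for it. Bak1 was the 1 member that passed, narrowly (unadjusted p = 0.0479), against 6.83% of all genes. Its unadjusted p by limma was 0.0811 with median-ratio scaling, 0.0939 with quantile normalization and 0.0745 with eBayes without a trend. The median log2 fold change of the 9 members was 0.13, and the median of its size was 0.20, the same as over all genes tested. Nothing particular to the family follows from these counts, because the members were listed with results of these libraries known. In RNA of a mixed cell sample, fewer cells of a type and less RNA per cell cannot be told apart.

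Among the prosurvival genes, Mcl1 and Bcl2 were higher in all Hemgn-/- than in all WT libraries as deposited, without passing the adjusted test, and with median-ratio scaling the groups overlapped for Mcl1. MCL1 is a short-lived protein on which hematopoietic stem cells depend. Mcl1 (chromosome 3) was at 50.0, 54.6 and 51.3 FPKM in WT replicates 1 to 3 and at 59.9, 60.9 and 58.9 FPKM in Hemgn-/- replicates 1 to 3. Every Hemgn-/- library lay above the highest WT library, at a ratio of group means of 1.15. The log2 fold change was 0.20 (95% CI 0.042 to 0.36, adjusted p = 0.141). It was 0.10 with median-ratio scaling and 0.29 with TPM, the one alternative under which its adjusted p fell under the threshold (0.0411, in a range of 0.0411 to 0.508).

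Bcl2, the founding member of the family, lies on chromosome 1 and was at 6.49, 7.88 and 7.32 FPKM in WT and at 9.80, 8.84 and 9.53 FPKM in Hemgn-/- libraries. Here too the groups did not overlap, and the gap between the highest WT library and the lowest Hemgn-/- library was wider than the SD of either group. Its log2 fold change was 0.34 (95% CI 0.09 to 0.59, adjusted p = 0.114), with a ratio of means of 1.30. Under the alternatives it ranged from 0.25 to 0.42 and kept its direction, with adjusted p between 0.0528 and 0.269. Between 1407 and 2521 fragments stood behind each value. An antisense gene, D630008O14Rik, overlaps 6.09% of its exon bases and was at 0.105 to 1.11 FPKM.

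Bcl2l1 (chromosome 2), whose long product BCL-XL shares the prosurvival role, overlapped Mcl1 in its level in WT libraries. It was at 49.1, 50.7 and 51.0 FPKM in WT and at 47.6, 48.2 and 48.2 FPKM in Hemgn-/- libraries, so that all 3 Hemgn-/- libraries lay just under the lowest WT library. The log2 fold change was -0.065 (95% CI -0.22 to 0.088, adjusted p = 0.613), and it depended on the scaling, with -0.17 by median-ratio scaling, -0.14 by quantile normalization and the opposite direction, 0.022, by TPM. The interval excludes a drop of more than 0.22 on the log2 scale with the deposited scaling. Gene-level FPKM do not separate its long and short splice products, which have opposite roles.

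For Bcl2a1d and Bcl2a1b the 2 groups overlapped. Bcl2a1d was at 9.69, 7.97 and 7.36 FPKM in WT and at 7.31, 7.92 and 8.10 FPKM in Hemgn-/- libraries, and 2 of the 3 Hemgn-/- libraries lay inside the WT range. Its log2 fold change was -0.083 (95% CI -0.36 to 0.19, adjusted p = 0.736) and turned to 0.018 without WT replicate 1. Bcl2a1b was at 0.207, 0.143 and 0 FPKM in WT and at 0.0892, 0.187 and 0.508 FPKM in Hemgn-/- libraries, which stands for 4, 3 and 0 and for 2, 4 and 12 fragments. It stayed under the filter and was not tested, and 49.1% of its exon bases are shared with an overlapping gene on the same strand, Gm29094.

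The third copy in the table, Bcl2a1a, is no member of the 10 but decides how the A1 signal is read. It was at 2.63, 2.67 and 2.78 FPKM in WT and at 3.65, 4.99 and 4.10 FPKM in Hemgn-/- libraries, all above the WT libraries. Its log2 fold change was 0.50 (adjusted p = 0.0733, in a range of 0.0343 to 0.29 under the alternatives). Summed over the 3 copies, the signal was 12.5, 10.8 and 10.1 FPKM in WT and 11.0, 13.1 and 12.7 FPKM in Hemgn-/- libraries, and the groups overlapped. The summed log2 fold change was 0.13 ± 0.11 (SE, adjusted p = 0.555). The ratio of Bcl2a1a to Bcl2a1d, computed after the values had been seen, was 0.271, 0.335 and 0.377 in WT and 0.499, 0.630 and 0.506 in Hemgn-/- libraries, and it depends on how shared fragments were assigned.

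Of the 2 effectors, Bax was lower and Bak1 higher in all Hemgn-/- than in all WT libraries, and neither passed the adjusted test. BAX shuttles between the cytosol and mitochondria, while BAK1 resides in the mitochondrial membrane, and in many cells either can open the pore. Bax (chromosome 7) was at 44.7, 50.6 and 46.2 FPKM in WT and at 37.3, 41.6 and 36.2 FPKM in Hemgn-/- libraries. The highest Hemgn-/- library lay under the lowest WT library, and the ratio of means was 0.813. The log2 fold change was -0.29 (95% CI -0.49 to -0.095, adjusted p = 0.0909). Of all members this was the smallest adjusted p. It kept its direction under all alternatives (-0.39 to -0.21), and its adjusted p fell under the threshold with median-ratio scaling (0.0387) and quantile normalization (0.0401), in a range of 0.0387 to 0.263. Between 1612 and 2042 fragments stood behind each value, and Gm45808, on the same strand, overlaps 12.2% of its exon bases.

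Bak1 (chromosome 17) was at 4.81, 1.77 and 4.2 FPKM in WT and at 5.24, 6.03 and 5.45 FPKM in Hemgn-/- libraries. The WT libraries disagreed among themselves, with a coefficient of variation of 44.8% against 7.37% in Hemgn-/-, because WT replicate 2 held 109 fragments of Bak1 where replicates 1 and 3 held 274 and 280. The depth of that library, 25592557 fragments, was between those of the other 2. The log2 fold change was 0.59 (95% CI 0.0068 to 1.17, adjusted p = 0.228). This was the largest of the members as deposited, but without WT replicate 2 it was 0.26 (adjusted p = 0.341, in a range of 0.136 to 0.436), under the 0.39 of Bcl2 in the same fit. The remaining WT libraries still lay under all Hemgn-/- libraries. An antisense gene, Ggnbp1, overlaps 18.2% of the exon bases of Bak1 and was at 0.25 to 0.39 FPKM.

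**Figure D2:**
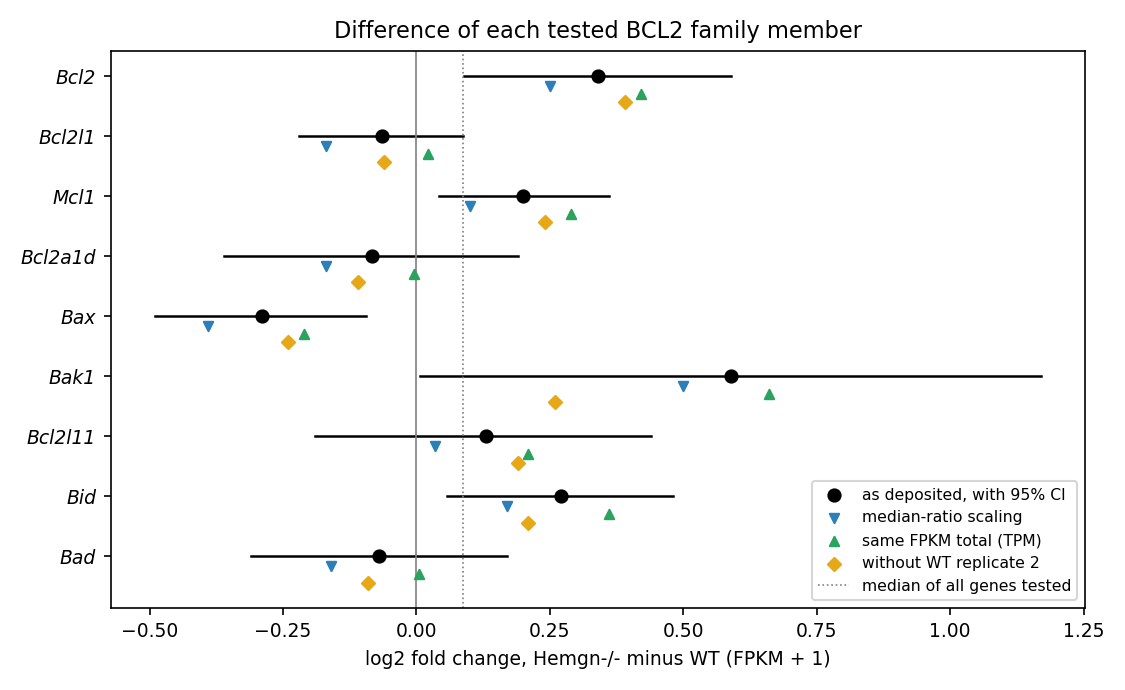
Log2 fold change of the 9 tested members on the log2(FPKM + 1) scale, Hemgn-/- minus WT, with black points and lines for the deposited values and their 95% confidence interval, and coloured symbols for 2 other scalings and for the fit without WT replicate 2. The dotted line is the median of all genes tested, 0.087. Bax stays below 0 under each setting shown, Bcl2l1 and Bad cross 0 with TPM, and Bak1 moves from 0.59 to 0.26 without WT replicate 2.

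Bid was the most abundant of the 3 BH3-only members, with 38.6 FPKM or more in every library, whereas Bcl2l11 and Bad reached at most 9.22 FPKM. BID links the death receptors to mitochondria once caspase-8 has cut it. Bid (chromosome 6) was at 44.4, 38.6 and 43.5 FPKM in WT and at 55.9, 50.3 and 46.9 FPKM in Hemgn-/- libraries. All Hemgn-/- libraries were above all WT libraries as deposited, with a ratio of means of 1.21, and the groups overlapped with median-ratio scaling. The log2 fold change was 0.27 (95% CI 0.058 to 0.48, adjusted p = 0.138), and it ranged from 0.17 to 0.36 under the alternatives with no adjusted p under the threshold (0.0535 to 0.391). The antisense gene Bcl2l13 overlaps 17.7% of its exon bases and was at 5.72 to 7.08 FPKM.

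Bcl2l11 (chromosome 2), which encodes BIM, was at 6.87, 8.07 and 6.98 FPKM in WT and at 8.61, 9.22 and 6.56 FPKM in Hemgn-/- libraries. Its Hemgn-/- libraries spanned the WT range, with replicate 3 the lowest of all 6. The log2 fold change was 0.13 (95% CI -0.19 to 0.44, adjusted p = 0.637). It was 0.04 without Hemgn-/- replicate 2, 0.26 without Hemgn-/- replicate 3 and 0.035 with median-ratio scaling. Bad (chromosome 19), whose product is held inactive by survival kinases, was at 6.15, 5.86 and 6.15 FPKM in WT and at 5.37, 6.03 and 5.74 FPKM in Hemgn-/- libraries. Its groups overlapped, the log2 fold change was -0.071 (95% CI -0.31 to 0.17, adjusted p = 0.739), and it was -0.16 with median-ratio scaling, -0.17 with quantile normalization and 0.0046 with TPM. Gpr137, on the other strand, overlaps 20.5% of the exon bases of Bad and was at 1.70 to 3.26 FPKM.

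Ratios of members within a library do not depend on the scaling between libraries, and they are given as descriptions without a test. They carry the composition of the sorted cells just as the levels do. The ratio of Bax to Bcl2, an effector to a prosurvival gene, was 6.89, 6.42 and 6.31 in WT and 3.80, 4.70 and 3.80 in Hemgn-/- libraries. Every Hemgn-/- library was lower than every WT library, with means of 6.54 ± 0.307 and 4.10 ± 0.522 (SD, n = 3). This separation follows from the levels as deposited, where Bax was lower and Bcl2 higher in all Hemgn-/- libraries. Over the listed members, the FPKM sum of the 2 effectors divided by that of the 5 prosurvival members was 0.429, 0.432 and 0.431 in WT and 0.341, 0.378 and 0.332 in Hemgn-/- libraries. The 3 WT libraries were nearly equal in this ratio, and the 3 Hemgn-/- libraries lay lower.

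The class sums, which hold the listed members alone and so leave out genes such as Pmaip1 and Bcl2a1a, show what made up that ratio. The prosurvival sum was 116, 121 and 117 FPKM in WT and 125, 126 and 125 in Hemgn-/- libraries. The effector sum was 49.5, 52.4 and 50.4 FPKM in WT and 42.5, 47.6 and 41.6 in Hemgn-/- libraries. Most of it was Bax, at 44.7, 50.6 and 46.2 FPKM in WT and 37.3, 41.6 and 36.2 in Hemgn-/- libraries. Bak1, the smaller part, was higher in all Hemgn-/- libraries. The BH3-only sum was 57.4, 52.5 and 56.6 FPKM in WT and 69.9, 65.6 and 59.2 in Hemgn-/- libraries. Most of it was Bid, at 38.6 FPKM or more in every library. As deposited none of the 3 sums overlapped between the groups, the effector sum being lower and the other 2 higher in Hemgn-/-. Unlike the ratios, these sums depend on the scaling between libraries. With median-ratio scaling, applied to them after the values had been seen, the prosurvival sum was 118, 125 and 120 in WT and 120, 120 and 118 in Hemgn-/- libraries, and the BH3-only sum 58.5, 54.0 and 58.3 in WT and 67.4, 62.6 and 56.0 in Hemgn-/- libraries, so that both overlapped. The effector sum was lower in all Hemgn-/- libraries under median-ratio scaling and TPM as well. When effectors and BH3-only members were added and divided by the prosurvival sum, the groups overlapped, with 0.925, 0.865 and 0.915 in WT and 0.902, 0.898 and 0.805 in Hemgn-/- libraries.

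Within the prosurvival sum the weight lay on 2 genes. Mcl1 made up 43.3, 45.0 and 43.8% of it in WT and 48.0, 48.3 and 47.1% in Hemgn-/- libraries. Bcl2l1 made up 42.5, 41.8 and 43.6% in WT and 38.2, 38.3 and 38.5% in Hemgn-/- libraries. Mcl1 thus took the larger share of these 2 genes in every library. The shares were near-equal in WT libraries and further apart in each Hemgn-/- library. Bcl2 made up 5.62 to 6.50% in WT and 7.02 to 7.86% in Hemgn-/- libraries, and the share of Bcl2a1d overlapped (6.29 to 8.39% and 5.86 to 6.47%).

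Further ratios were chosen after the values had been seen. Bid was below Bax in every WT library, at a ratio of 0.992, 0.762 and 0.942, and above it in every Hemgn-/- library, at 1.5, 1.21 and 1.30. Mcl1 to Bcl2l1 was 1.02, 1.08 and 1.00 in WT and 1.26, 1.26 and 1.22 in Hemgn-/- libraries. Bak1 to Bax was 0.108, 0.0350 and 0.0908 in WT and 0.141, 0.145 and 0.151 in Hemgn-/- libraries, with the low value again in WT replicate 2. These 3 ratios did not overlap between the groups. That adds nothing to the levels as deposited, where Bid, Mcl1 and Bak1 were higher and Bax and Bcl2l1 lower in all Hemgn-/- libraries.
Of the other ratios, Bak1 to Bcl2l1 was 0.0979, 0.0349 and 0.0823 in WT and 0.110, 0.125 and 0.113 in Hemgn-/- libraries. Bcl2l11 to Mcl1, the activator BIM against the protein that binds it, overlapped, with 0.137, 0.148 and 0.136 in WT and 0.144, 0.152 and 0.111 in Hemgn-/- libraries.

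**Figure D3:**
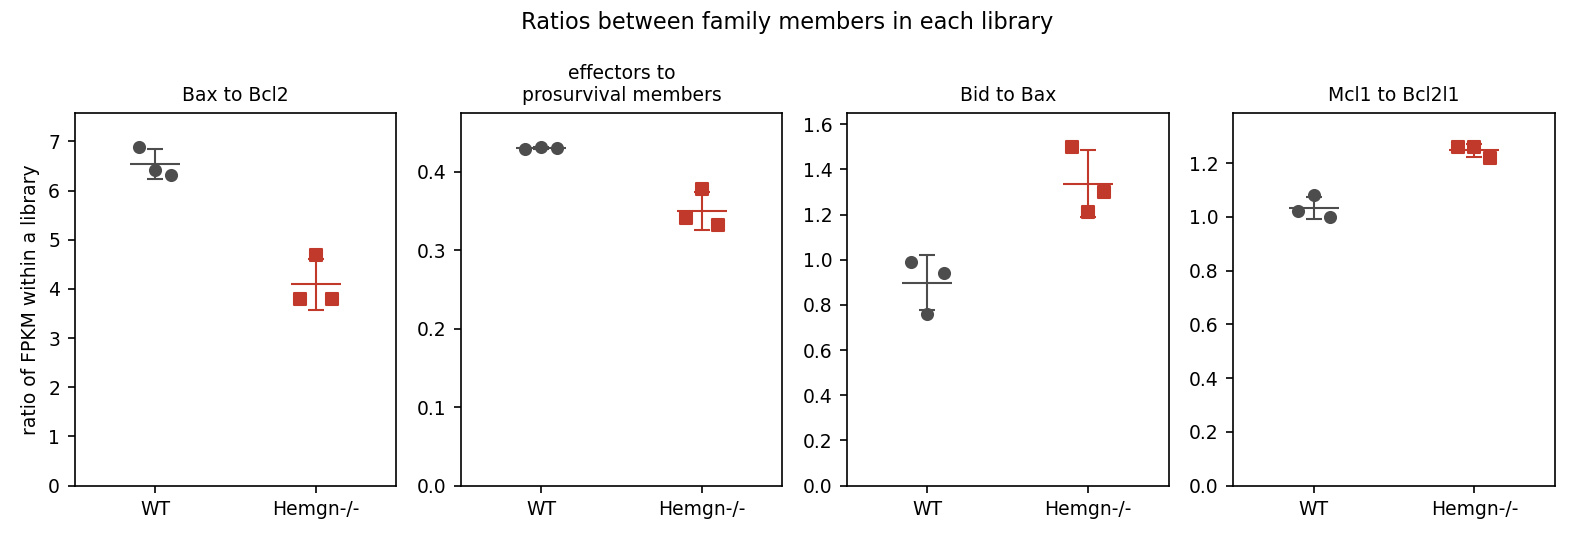
Ratios of FPKM between family members within each library, with 1 point per library, the mean and SD of each group (n = 3), and a linear axis from 0 in each panel. Bax to Bcl2 and effectors to prosurvival members are lower in all Hemgn-/- libraries than in all WT libraries, and Bid to Bax and Mcl1 to Bcl2l1, chosen after the values had been seen, are higher.

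The promoters of the members were searched for the letters of 4 motifs, since interferon-activated, NF-kB and p53 transcription factors are known regulators of the family. The windows held 250 bases before and 50 bases after each RefSeq start site in GRCm38.p6. All 10 members matched, with 14 windows, and both strands were read. The interferon-gamma activated site (GAS, TTCNNNGAA) was in none of the 14 windows and in 8.30% of 32851 promoters. The core of the interferon regulatory factor site (AANNGAAA) was in 4 windows, of Bcl2a1d, Bcl2l1 and Bcl2l11, and in 23.9% of all promoters. The NF-kB site was in 1 window, of Bcl2l1 (8.46% of all promoters), and the p53 half-site was in 1 window, of Bax (8.36%). With 14 windows these counts are too few to set against the shares of all promoters, and a match of letters is not a bound site. The 250 bases before the start of Bax, the member with the smallest adjusted p, are given because BAX is a textbook target of p53, with the p53 half-site, at bases 201 to 192 before the start, in capitals. They lie at chr7:45466899-45467148 of GRCm38.p6 and are written 5′ to 3′ on the minus strand.
Bax: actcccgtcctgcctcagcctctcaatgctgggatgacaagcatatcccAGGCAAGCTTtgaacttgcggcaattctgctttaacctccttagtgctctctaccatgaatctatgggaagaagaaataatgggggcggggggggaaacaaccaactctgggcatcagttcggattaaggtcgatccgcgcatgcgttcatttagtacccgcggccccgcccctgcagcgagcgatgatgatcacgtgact

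The 10 members were set beside 17 other genes in the table, some of the family and some listed only as related to it. Of these, 13 passed the filter and none was called at an adjusted p under 0.05. The median log2 fold change of the 13 was 0.048. The list of related genes, among them Bclaf1, Mtch2, Bnip1 and Bnip2, gave 7 of the 13. The BH3-only gene Pmaip1, which encodes NOXA, was at 29.4, 27.5 and 32.1 FPKM in WT and at 38.2, 31.6 and 31.0 FPKM in Hemgn-/- libraries, and the groups overlapped (adjusted p = 0.399). Bbc3, which encodes PUMA, was at 5.98 ± 0.845 FPKM in WT and 6.45 ± 0.228 in Hemgn-/- libraries (SD, n = 3), and Bmf at 3.45 ± 0.290 and 3.86 ± 0.937. Bik and the prosurvival gene Bcl2l2 had means under 1 FPKM in both groups. Bnip3l, which marks mitochondria for removal, had the highest level of these 17 genes. It was at 85.9, 78.4 and 78.9 FPKM in WT and at 74.1, 70.4 and 77.3 FPKM in Hemgn-/- libraries (log2 fold change -0.13, adjusted p = 0.349). Bnip2 followed at 50.0 ± 3.02 and 47.6 ± 2.98 FPKM. The mean levels of Bnip3 were 11.8 FPKM in WT and 12.2 in Hemgn-/-, and those of Bclaf1 8.41 and 8.54, Bcl2l13 6.42 and 6.33, Mtch2 6.25 and 6.85, and Bnip1 3.07 and 4.23. The effector gene Bok and Bcl2l12, Bcl2l14 and Bcl2l15 stayed under the filter. Bcl2a1c, Bcl2l10 and Hrk were not analysed here.

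Downstream of the mitochondria 1 of 15 tested genes rose and none fell, a share near the 6.46% of all genes called. Birc3, an inhibitor of apoptosis that also acts in NF-kB signalling, was at 57.8, 54.3 and 56.0 FPKM in WT and at 80.7, 74.2 and 77.8 FPKM in Hemgn-/- libraries. The groups stood well apart, with a log2 fold change of 0.46 ± 0.070 (SE, adjusted p = 0.00681). The call was lost in 1 of 15 alternatives, eBayes without a trend (adjusted p = 0.0605, in a range of 0.002 to 0.0605). The median log2 fold change of these genes, which include caspases, cytochrome c, its partner Apaf1 and the inhibitor Xiap, was 0.023.

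In the death receptor arm, whose signal reaches mitochondria through BID, 1 of 8 tested genes rose, against 6.46% of all genes called. Fas, a receptor whose ligation starts caspase-8, was at 17.0, 16.1 and 16.2 FPKM in WT and at 22.2, 23.7 and 21.2 FPKM in Hemgn-/- libraries (log2 fold change 0.42 ± 0.085 (SE), adjusted p = 0.0235). Its groups did not overlap. The call held in 4 of 15 alternatives and was lost when any 1 of the 6 libraries was left out, with log2 fold changes of 0.38 to 0.46 and adjusted p from 0.0555 to 0.0811. It was lost with median-ratio scaling as well (0.32, adjusted p = 0.0709, in a range of 0.00889 to 0.0811). The median log2 fold change of the arm was 0.13.

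The kinases Pim1 and Pim2 were the 2 called genes among 18 tested regulators of the family's proteins, against 6.46% of all genes. PIM kinases phosphorylate BAD and so keep it from binding the prosurvival proteins. Pim1 was at 46.4, 52.1 and 43.6 FPKM in WT and at 159, 159 and 164 FPKM in Hemgn-/- libraries. Its log2 fold change was 1.74 ± 0.079 (SE, adjusted p = 1.29e-05), and the call held in all 15 alternatives. Pim2 was at 41.3, 43.0 and 37.0 FPKM in WT and at 56.9, 59.2 and 53.6 FPKM in Hemgn-/- libraries (0.48 ± 0.084 (SE), adjusted p = 0.0133). For Pim2 the call was lost without Hemgn-/- replicate 2 (0.44, adjusted p = 0.0514) and with eBayes without a trend (adjusted p = 0.0725), the highest in its range from 0.00588. The list, which also holds kinases of the AKT and JNK families, 14-3-3 proteins and ubiquitin enzymes, had a median log2 fold change of 0.16.

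Of 12 tested transcription factors known to act on family genes, 1 rose, the NF-kB subunit Nfkb2, and none fell, against 6.46% of all genes called. It was at 30.2, 29.6 and 26.0 FPKM in WT and at 38.0, 37.9 and 40.9 FPKM in Hemgn-/- libraries (log2 fold change 0.43 ± 0.087 (SE), adjusted p = 0.0227). The call was lost in 8 of 15 alternatives, among them those without WT replicate 1 (adjusted p = 0.0509), WT replicate 3 (0.0697), Hemgn-/- replicate 2 (0.0594) or Hemgn-/- replicate 3 (0.105), in a range of 0.0107 to 0.105. At an unadjusted p under 0.05 there were 5 of 12 factors (Trp53, Nfkb2, Rel, Relb and Stat5a), all higher in Hemgn-/-, against 21.4% of all genes. Relb had a log2 fold change of 0.60 (adjusted p = 0.0524) and passed the study's threshold. Trp53, which encodes p53, was at 31.5, 33.4 and 32.7 FPKM in WT and at 38.1, 36.7 and 39.9 FPKM in Hemgn-/- libraries (0.23, adjusted p = 0.127). The median log2 fold change of the list was 0.20. Over these 4 lists and the other family and related genes, 5 of 66 tested genes were called, all higher in Hemgn-/-. This share was near the 6.46% called over all genes, with a median log2 fold change of 0.10 against 0.087 over all genes. The plot of log2 fold changes by list shows the members beside these genes.

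**Figure D4:**
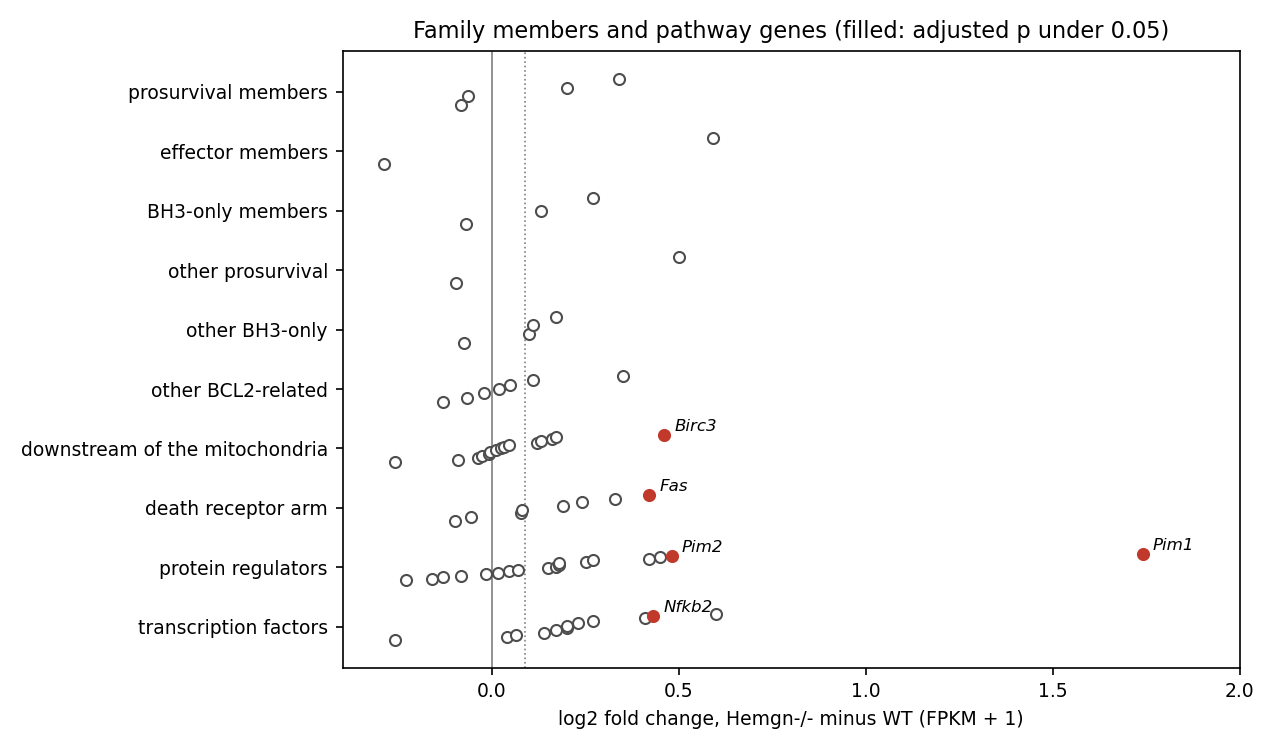
Log2 fold change on the log2(FPKM + 1) scale, Hemgn-/- minus WT, of the tested members and of the tested genes of each list, with 1 point per gene. Filled and named points have an adjusted p under 0.05, the solid line is 0 and the dotted line is the median of all genes tested, 0.087. The members lie between -0.29 and 0.59 with no filled point, and Pim1 stands apart at 1.74.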

How the data were processed

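RNA-seq of 3 WT and 3 Hemgn-/- libraries was used, grouped by the genotype in the sample labels. The authors deposited FPKM values per gene. The submitters' processing notes name Bowtie2 2.2.3, HISAT2 2.1.0, TopHat2, HTSeq 0.6.0 and GRCm38, without roles, and the annotation and strand setting are not given in the sources used here. The labels name another RNA and library kit (RNeasy Mini, TruSeq) than the study's methods (RNeasy Micro, Smart-Seq2, which amplifies cDNA). Symbols and exon lengths came from GENCODE M21 (24921 of 24965 genes matched, 44 did not). Low values were whole fragments for 95.7% of 13486 genes with at most 100 fragments (tolerance 0.05 fragments), which gave the depth. Fragments are not independent molecules. Replicates differed beyond sampling noise (chi-square per gene 18.6 to 38.3), so none was a copy.

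Genes above 1 FPKM in at least 1 library were compared on log2(FPKM + 1) with limma 3.58.1 in R 4.3.3 (eBayes with a trend, two-sided, Benjamini-Hochberg over all genes tested). Fold changes on this scale understate the change of low genes, and an exact permutation test of 3 against 3 libraries cannot go below 0.1. The members and lists were chosen with earlier results of these data known. Named genes are the members, Hemgn, called genes of the pathway lists, the other family and related genes, and the leading and near-absent marker genes. Kit is named as a gene of the sort, and so are erythroid markers and transcription factors with an unadjusted p under 0.05. Alternatives were a pseudocount of 0.1, 2 other filters, 3 scalings, the replicate number as a block, eBayes without a trend, fold changes of group means, voom on recovered fragments and leaving out each library. Python 3.11.15 with pandas 2.3.3 and matplotlib 3.10.9 did the rest.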

Additional observations from a re-analysis of the deposited data

How the results depend on the processing

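Of 135 tested values of members under the alternatives, 129 kept their direction and their side of the adjusted threshold, 3 passed it and 3 turned direction. The number of members called was 0 as deposited, and it was 1 with median-ratio scaling (Bax), 1 with quantile normalization (Bax) and 1 with TPM (Mcl1). It stayed 0 under the other alternatives. The directions that turned were those of Bcl2l1 (0.022) and Bad (0.0046) with TPM and of Bcl2a1d without WT replicate 1, where the range with 1 library left out was -0.16 to 0.018. All genes called, 887 as deposited, came to 466 with genes above 0 FPKM in at least 1 library and to 390 with eBayes without a trend. Leaving out 1 library gave 373 to 688 genes. The lowest number came from leaving out Hemgn-/- replicate 3, and it was 470 when WT replicate 1 was absent, 494 when WT replicate 3 was absent and 525 when Hemgn-/- replicate 2 was absent. The summed Bcl2a1 copies were called under no alternative, with log2 fold changes of 0.035 to 0.21. Same-numbered libraries did not deviate together over all genes tested (correlations of -0.0428, -0.00936 and 0.0111). A shared effect that is weak or limited to few genes would not show in these correlations. With the replicate number as a block 636 genes and 0 members were called. Having 3 libraries a group limits what can be told, since the median SE over all genes tested was 0.16 on the log2 scale. Bcl2a1b, with at most 12 fragments in a library, was below what could be compared.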
